A study of Mus musculus with 11 samples.

Results

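The comparison described here is between inguinal white adipose tissue lacking Raptor in its adipocytes and control tissue, both from mice on a high-fat diet without drug. It rests on 5 of the 11 bulk RNA sequencing libraries of the study, all those of mice given the diet alone, chosen by genotype and treatment. The 2 KO libraries came from C57BL6/J mice carrying a floxed Raptor gene (Rptor) and Cre recombinase driven by the adiponectin promoter, which is active in adipocytes. The 3 WT libraries came from mice of the same strain with the floxed gene, and all mice were aged 16 weeks after 8 weeks on the diet from the age of 8 weeks. The other 6 libraries, 3 KO and 3 WT, came from mice whose diet also held rosiglitazone, an agonist of the nuclear receptor PPARG, at 30 mg/kg/day. They enter here through the shared estimate of the spread and as a second, separate set of KO and WT libraries.

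The sample titles of all 6 WT libraries name the opposite treatment to their treatment characteristic. The characteristic was followed, so each direction below holds under that label, and the grouping by titles is given where it changes a direction. Labels of the KO libraries do not conflict. Whether each library is a separate animal is not said in the labels, so p-values cover only the spread among these samples, possibly a technical one.

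Raptor is the scaffold subunit of mTOR complex 1 (mTORC1), a kinase complex that senses amino acids and insulin, phosphorylates substrates such as S6 kinase and 4E-BP1, and promotes protein and lipid synthesis while restraining autophagy. In white adipocytes it is known for supporting lipid storage, lipogenic transcription through SREBP1 and the PPARG programme. White fat also holds macrophages, progenitors and vessels, and the inguinal depot surrounds a lymph node. In bulk tissue, fewer cells of a type and less RNA per cell cannot be told apart.

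The KO libraries held 18910679 and 20163464 estimated reads, and the WT libraries 27160069, 18134897 and 16088059, in replicate order. Levels are given in CPM, read counts scaled to a common library total and for library composition. Libraries of the same group differed in tissue content. The sum over 22 mature adipocyte markers was 13315 and 4182 CPM in KO against 54759, 22180 and 18267 CPM in WT, and none was at 0 in either group. For 24 markers of T and NK cells the sum was 62.4 CPM in KO replicate 1 and 53.3 CPM in WT replicate 1, against 1013 CPM in KO replicate 2 and 486 to 646 CPM in the other WT libraries. Skeletal muscle markers reached 16962 CPM in WT replicate 2, 1.91% of its reads, and 213 to 1133 CPM in the other 4 libraries. Macrophage markers reached 4412 CPM in KO replicate 1 and 1200 to 1627 CPM in the other libraries. In every comparison below, the adipocyte sum was lower in both KO libraries than in all 3 WT libraries.

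**Figure D1:**
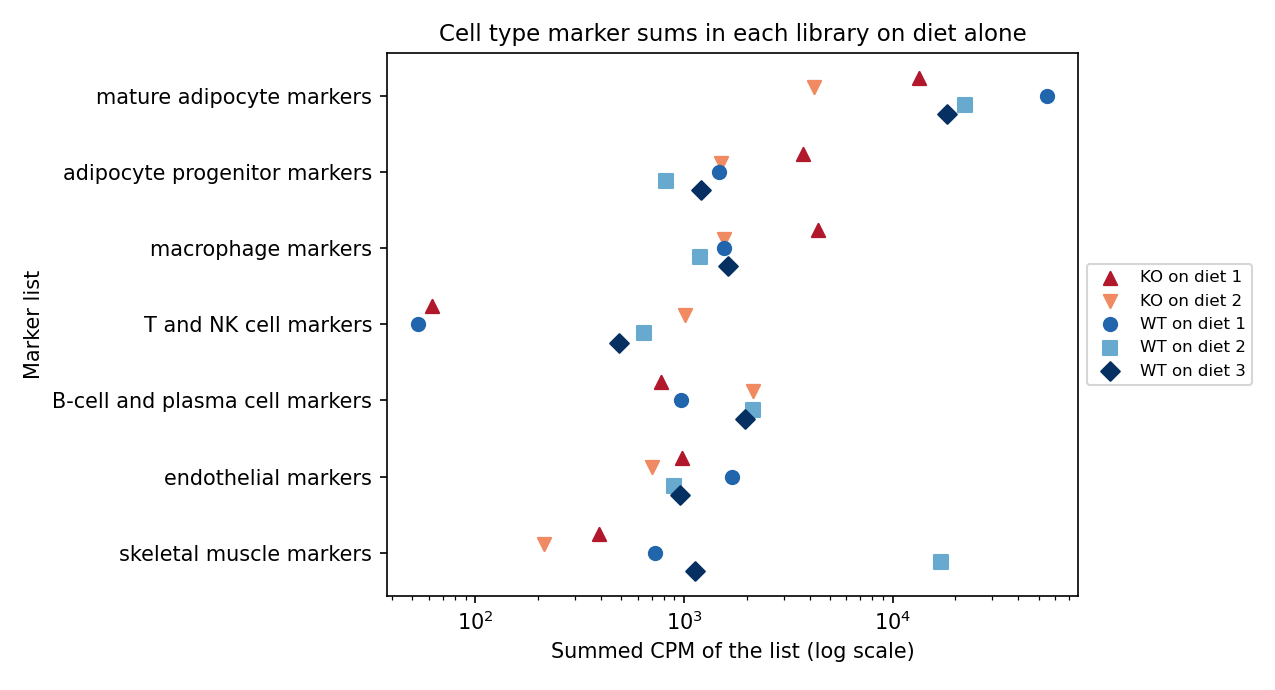
Summed CPM (log axis) of 7 cell type marker lists in each of the 2 KO and 3 WT libraries on diet alone, 1 point per library. Adipocyte sums of both KO libraries lie below those of all WT libraries, T and NK cell sums split replicate 1 of both genotypes from the rest, and WT replicate 2 stands apart in muscle markers.

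Rptor, the deleted gene, spans 119602905 to 119899576 on the plus strand of chromosome 11 (GRCm38; ENSMUSG00000025583.15). It measured 56.5 and 69.6 CPM in KO and 92.0, 80.1 and 73.9 CPM in WT. Both KO libraries lay below all WT libraries in CPM. In TPM, which divides by transcript length, the groups overlapped, at 18.0 and 21.5 in KO against 19.8, 25.2 and 19.9 in WT. The log2 fold change was -0.38 ± 0.17 (SE) and did not pass edgeR's quasi-likelihood test with Benjamini-Hochberg adjustment (adjusted p = 0.467). With WT grouped by titles it was -0.91 (adjusted p = 0.0143). An exact permutation test of 2 libraries against 3 cannot reach the threshold. The count covers the whole gene in all cells of the tissue, of which only adipocytes were targeted.

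Across the genome, 37 of 26960 genes passed the test at an adjusted p under 0.05 (0.137%), with 30 lower in KO (0.111%) and 7 higher (0.026%). Of the lower genes, 20 fell by more than 3 on the log2 scale, and 31 of the 37 were protein-coding. Both KO libraries lay outside the WT range for all 37, which was so for 10.3% of tested genes on the lower side and 10.5% on the higher side. The median log2 fold change of all genes was 0.02. At an unadjusted p under 0.05 there were 2829 genes (10.5%).

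The number of calls depended on the fit, and the directions seldom did. Fitted on the 5 libraries alone, edgeR called 0 genes (1404 at an unadjusted p under 0.05), DESeq2 on all 11 libraries called 736, and leaving out 1 library gave 2 calls (without WT with rosiglitazone replicate 1) to 250 (without KO on diet replicate 2). The 37 genes kept their direction in all 26 alternative fits that tested them, except B430119L08Rik and Gm22419 when WT was grouped by titles. Hist1h2ap and Slc2a5 passed in each of the 11 fits without 1 library, and each of the other 35 lost its call in at least 1 of them. With WT grouped by titles, 27 of the 30 were called lower (6.67% of all genes) and 5 of the 7 higher (4.03%).

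**Figure D2:**
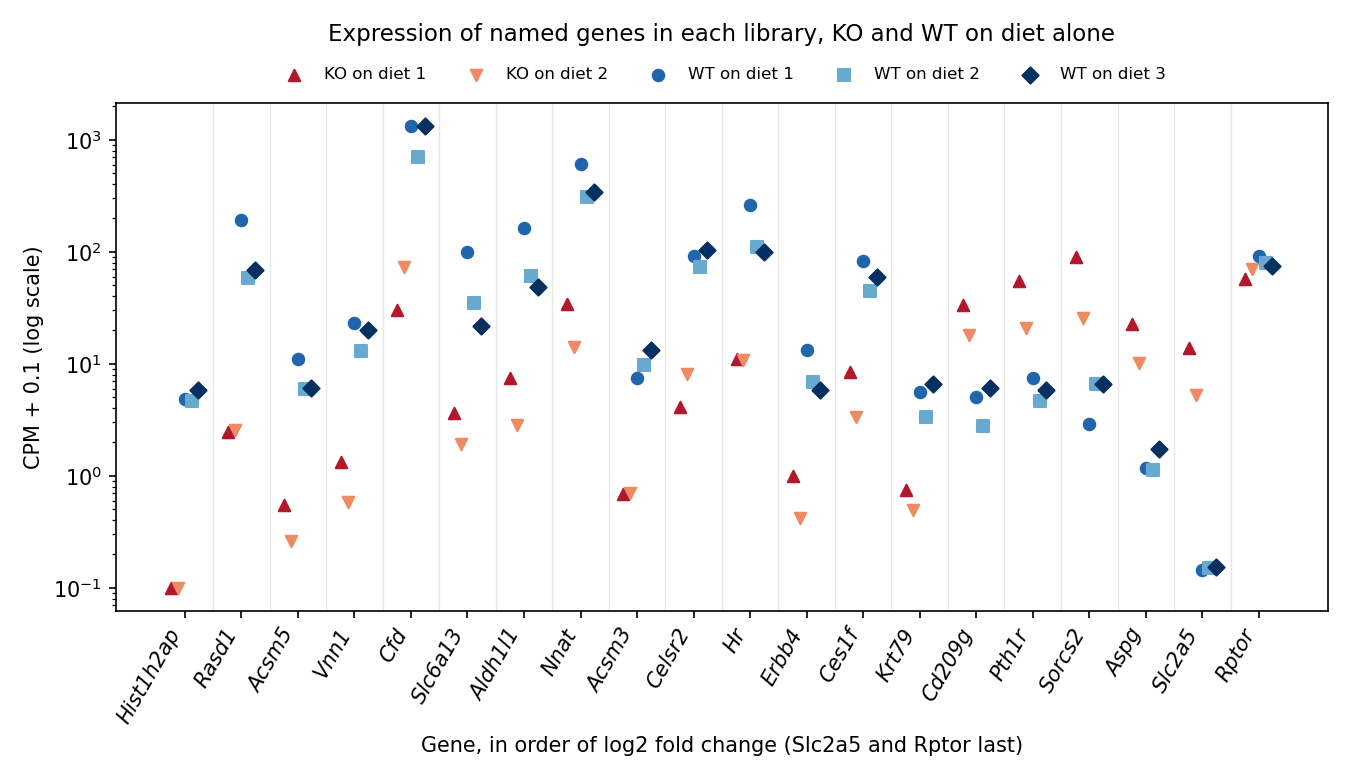
CPM plus 0.1 (log axis) in each library on diet alone for the 18 genes named by rule, in order of log2 fold change, then Slc2a5 and Rptor; triangles are KO and the other symbols WT. For the 14 genes on the left both KO libraries lie below all WT libraries, and for Cd209g, Pth1r, Sorcs2, Aspg and Slc2a5 both lie above them.

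Cfd had the highest WT level of the called genes that fell, and Slc2a5 was nearly absent from WT. The pair was picked by hand after its values were seen, and Hist1h2ap and Gm22419 had more extreme log2 fold changes. The sequence before the 2 start sites is shown from RefSeq on GRCm38.p6, plus strand, 5′ to 3′. Capitals mark the GC box GGGCGG on either strand; also searched, on both strands, were the CCAAT box with the letters CCAAT, the TATA box as TATAAA, the E-box as CACGTG and the half-site of nuclear receptors as AGGTCA, and neither stretch held them. The Cfd stretch is chr10:79890603-79890852 and the Slc2a5 stretch is chr4:150119094-150119282, which stops before the first annotated base of the gene.
Cfd: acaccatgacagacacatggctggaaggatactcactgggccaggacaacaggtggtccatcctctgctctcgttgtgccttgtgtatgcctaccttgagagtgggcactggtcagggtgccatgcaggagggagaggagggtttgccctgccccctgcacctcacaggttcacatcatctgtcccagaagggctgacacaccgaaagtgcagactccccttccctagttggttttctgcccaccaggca
Slc2a5: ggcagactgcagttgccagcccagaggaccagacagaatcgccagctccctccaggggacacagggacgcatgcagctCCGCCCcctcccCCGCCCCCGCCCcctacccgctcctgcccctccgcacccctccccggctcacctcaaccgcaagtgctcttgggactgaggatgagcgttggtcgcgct
The Slc2a5 stretch held 3 GC boxes and 12 CpG pairs in 189 bases, and the Cfd stretch held none and 2 CpG pairs in 250 bases. Of the 37 called genes, 23 matched the RefSeq promoter table, and 11 of these (47.8%) had a GC box in the 250 bases before a start, against 32.7% of all 32851 promoters. CCAAT occurred in 30.4% of the 23 against 33.8% of all, TATAAA in 8.7% against 12.4%, CACGTG in 13% against 6.02% and AGGTCA in 13% against 14%. A called gene counted if any of its promoters held the motif, whereas all promoters were counted singly. A gene with several promoters thus had more chances, and these shares are unlike measures.

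Secreted and membrane proteins of adipocytes were among the genes that fell most. Cfd encodes adipsin, the complement factor D that fat releases into blood (GRCm38 chromosome 10, 79890853 to 79892655, plus strand). It measured 29.9 and 73.5 CPM in KO and 1324, 702 and 1323 CPM in WT, 51.7 ± 30.8 (SD, n = 2) against 1116 ± 359 CPM (SD, n = 3). The groups were far apart, and Cfd fell by 4.43 ± 0.53 (SE) on the log2 scale, a 21.6-fold lower level in KO (edgeR adjusted p = 0.0225). Nnat, the imprinted gene of the small membrane protein neuronatin (chromosome 2, 157560078 to 157562522, plus strand), measured 33.9 and 13.9 CPM in KO and 602, 305 and 339 CPM in WT. Its log2 fold change was -4.12 ± 0.49 (adjusted p = 0.0225), and it lies within the span of Blcap on the opposite strand, whose reads cannot be separated without strand.

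Single genes of several metabolic enzymes also fell, 5 of which are given here. Acsm5 and Acsm3 encode mitochondrial medium-chain acyl-CoA synthetases. Acsm3 measured 0.591 and 0.599 CPM in KO and 7.29, 9.58 and 13.1 CPM in WT, a log2 fold change of -4.05 ± 0.43 (adjusted p = 0.0168). Acsm5 measured 0.443 and 0.160 CPM in KO and 11, 5.80 and 6 CPM in WT (-4.67 ± 0.59, adjusted p = 0.0225). Both had low counts in KO, and Acsm5 overlaps Pdilt and Acsm3 overlaps Eri2 on the other strand. Vnn1, the pantetheinase that releases pantothenate and cysteamine, measured 1.23 and 0.479 CPM in KO and 23.1, 13 and 19.9 CPM in WT (-4.46 ± 0.55, adjusted p = 0.0225). Aldh1l1, the cytosolic 10-formyltetrahydrofolate dehydrogenase, measured 7.44 and 2.72 CPM in KO and 161, 60.9 and 48.0 CPM in WT (-4.15 ± 0.61, adjusted p = 0.0381). Ces1f, a carboxylesterase, measured 8.32 and 3.23 CPM in KO and 81.9, 44.3 and 58.9 CPM in WT (-3.42 ± 0.45, adjusted p = 0.0285). In all 5 even the lowest WT library stood well above the highest KO library.

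Signalling, transport and nuclear proteins made up most of the rest. Rasd1, a glucocorticoid-inducible small G protein of the Ras family, had nearly equal KO libraries, at 2.36 and 2.44 CPM, against 190, 58.7 and 69.0 CPM in WT (-5.46 ± 0.77, edgeR adjusted p = 0.0381). Hr, the transcriptional corepressor hairless, was as even in KO, at 10.9 and 10.7 CPM, against 262, 111 and 99.3 CPM in WT (-3.86 ± 0.56, adjusted p = 0.0381). Celsr2, an atypical cadherin, measured 4.04 and 7.99 CPM in KO and 91.8, 72.3 and 103 CPM in WT (-3.88 ± 0.41, adjusted p = 0.0168). WT replicate 1, the library highest in adipocyte markers, was the highest of the 5 for Rasd1 and Hr but not for Celsr2, and it was the highest for 25 of the 30 lower genes. Erbb4, a receptor tyrosine kinase for neuregulins, measured 0.886 and 0.319 CPM in KO and 5.79 to 13.1 CPM in WT (-3.84 ± 0.51, adjusted p = 0.0285). Slc6a13, a plasma membrane transporter of GABA and taurine, measured 3.50 and 1.84 CPM in KO and 21.7 to 99.9 CPM in WT (-4.29 ± 0.65, adjusted p = 0.0454). Krt79, a keratin, measured 0.640 and 0.399 CPM in KO and 3.24 to 6.47 CPM in WT (-3.28 ± 0.45, adjusted p = 0.0365).

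Hist1h2ap, a clustered histone H2A gene, had no read in either KO library and 4.77, 4.52 and 5.68 CPM in WT. Against a floor of 3 counts over the KO group it was at least 75.1-fold lower (edgeR adjusted p = 0.00134). It has near-identical copies among which Salmon divides reads, so its value is uncertain. In the rosiglitazone libraries it measured 8.48 ± 2.27 CPM in KO and 2.60 ± 0.358 CPM in WT (SD, n = 3 each), the opposite order.

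The remaining lower genes outside that naming rule, named here after their values were seen, fell by between 1.53 (Sema5a) and 4.01 (D430019H16Rik) on the log2 scale. They include Pxmp2, a peroxisomal membrane channel protein, Ivd, which oxidises isovaleryl-CoA in leucine breakdown, Irx3, a homeobox transcription factor, Net1, an exchange factor for RhoA, F8, coagulation factor VIII, and Rad18, a ubiquitin ligase of DNA damage tolerance. Also among them were Apol6, Fbxo21, Rasl12 and the non-coding genes 1700087I21Rik, Gm13111, Gm5144 and B430119L08Rik. Of the 37 genes, 20 overlap another annotated gene, among them Apol6 with the muscle gene Mb and B430119L08Rik with Serpina1c.

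Among the 7 genes that rose, Slc2a5 stood out for its near absence from WT. It encodes the fructose transporter GLUT5 (chromosome 4, 150119283 to 150144169, plus strand). It measured 13.7 and 5.15 CPM in KO, 408 reads in all, against 0.0434, 0.0491 and 0.0521 CPM in WT, 3 reads in all. Both KO libraries were far above every WT library. The pooled ratio of KO to WT was 188, with an exact 95% binomial interval of 63.8 to 914 that covers counting error only, and the fitted log2 fold change was 7.45 ± 0.78 (edgeR adjusted p = 0.0168). Its average log2 CPM of 0.91 is under the limit of 1 in the naming rule, so it was singled out after its values were seen. In the rosiglitazone libraries it measured 0.0459 ± 0.0403 CPM in KO and 0.0734 ± 0.0657 CPM in WT (SD, n = 3 each).

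Aspg, an enzyme with asparaginase and lysophospholipase activity, measured 22.4 and 10.1 CPM in KO and 1.08, 1.03 and 1.62 CPM in WT (log2 fold change 3.71 ± 0.46, edgeR adjusted p = 0.0225). Sorcs2, a sorting receptor that binds proneurotrophins, measured 90.5 and 25.4 CPM in KO and 2.82, 6.53 and 6.47 CPM in WT (3.46 ± 0.50, adjusted p = 0.0381). Pth1r, the receptor of parathyroid hormone and its related peptide, measured 54.8 and 20.8 CPM in KO and 7.42, 4.57 and 5.68 CPM in WT (2.68 ± 0.37, adjusted p = 0.0365). In these 3, as in every other called gene that rose, KO replicate 1 was the higher of the pair, and both exceeded every WT library. Cd209g, a C-type lectin of the DC-SIGN family, measured 33.6 and 18.1 CPM in KO and 4.99, 2.70 and 5.94 CPM in WT (2.51 ± 0.36, adjusted p = 0.0381). The other 2 were the pseudogene Gm11868, with 115 reads in KO and 1 in WT (ratio 159, exact 95% interval 27.9 to 6323), and the short RNA gene Gm22419, with 141 reads in KO and 0 in WT (at least 64.9-fold higher when WT is set to 3 counts over the group).

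The KO and WT libraries with rosiglitazone are separate samples of the same genotypes, although the same fit gives the spread. Of the 30 genes lower on diet alone, 27 were also called lower there, where 9.50% of all tested genes were, and 28 had a negative log2 fold change. Cfd was at 6.53 ± 2.25 CPM in KO and 470 ± 89.9 CPM in WT (SD, n = 3 each; log2 fold change -6.17 ± 0.49, edgeR adjusted p = 0.000306). Of the 7 higher genes, 3 were called higher there (5.47% of all tested genes), namely Aspg, Sorcs2 and Gm11868. Pth1r (0.26 ± 0.33, adjusted p = 0.625), Cd209g (-0.19 ± 0.32, adjusted p = 0.731) and Slc2a5 (-0.54 ± 1.13, adjusted p = 0.78) did not pass. The difference between both genotype contrasts passed its own test for 28 of 26960 genes (0.104%), including only Hist1h2ap, B430119L08Rik and Gm22419 of the 37. For Slc2a5 that difference was -7.99 ± 1.47 (adjusted p = 0.0954).

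**Figure D3:**
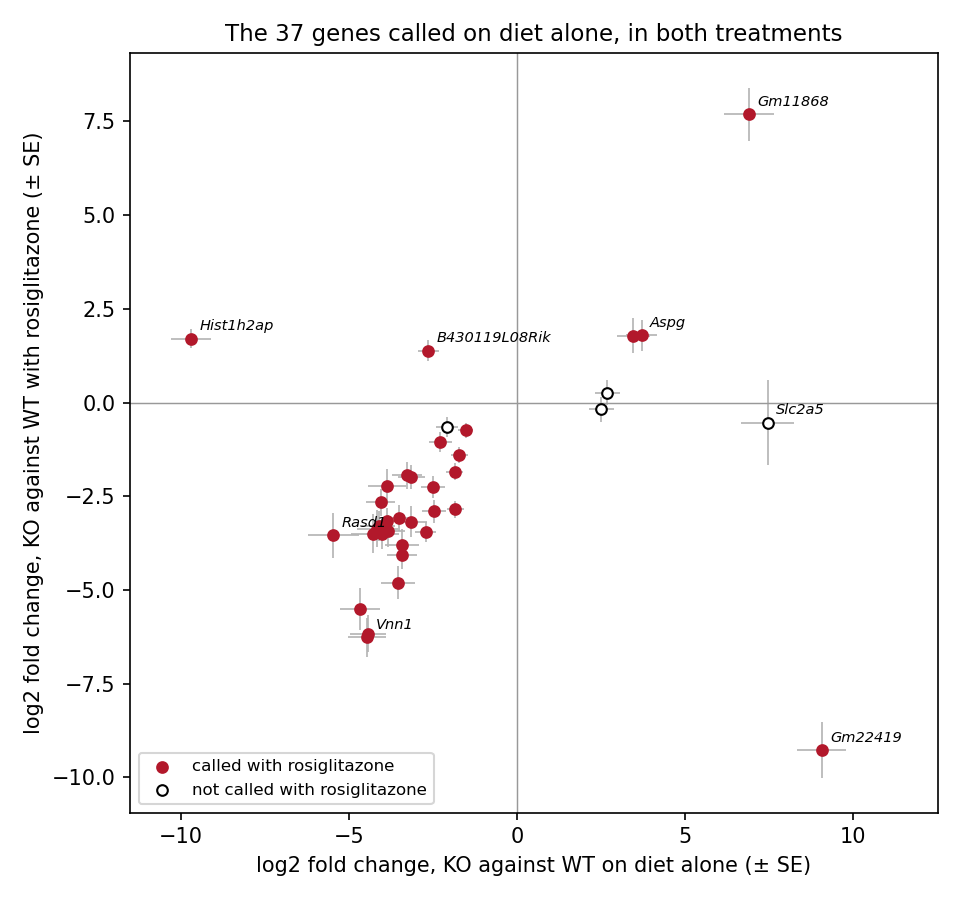
Log2 fold change of KO against WT on diet alone (x axis) and with rosiglitazone (y axis) for the 37 genes called on diet alone, with SE bars; filled points were also called with rosiglitazone. Most lower genes lie in the lower left, while Hist1h2ap, B430119L08Rik and Gm22419 change sign and Slc2a5 lies near 0 with rosiglitazone.

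Transcripts of mature adipocytes were lower in KO as a list. Of 22 markers, 1 was called (Cfd), 16 had an unadjusted p under 0.05 on the lower side (5.92% of all genes did) and 15 had both KO libraries below all WT libraries. Of all tested genes 10.3% had both below and 10.5% both above, the shares to set beside such counts here and in the lists that follow. The median log2 fold change was -1.50, against 0.02 over all genes, and no member was positive. Adipoq, the adiponectin gene whose promoter drives the Cre, measured 205 and 57.7 CPM in KO and 1679, 546 and 453 CPM in WT (-2.76 ± 0.69, edgeR adjusted p = 0.178). Car3, carbonic anhydrase 3, measured 527 and 252 CPM in KO and 9817, 3385 and 2654 CPM in WT (-3.76 ± 0.69, adjusted p = 0.0858). Slc7a10, a neutral amino acid transporter of adipocytes, measured 39.8 and 11.4 CPM in KO and 334, 119 and 124 CPM in WT (-2.91 ± 0.63, adjusted p = 0.141). These 3 did not overlap between groups but differed widely among WT libraries, and none passed the test.

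Other adipocyte genes lay closer together between groups. Plin1, the droplet coat protein perilipin 1, measured 518 and 186 CPM in KO and 1595, 753 and 623 CPM in WT (-1.49 ± 0.50, edgeR adjusted p = 0.322). Fabp4, the fatty acid binding protein, measured 1064 and 428 CPM in KO and 2674, 1141 and 1076 CPM in WT (-1.13 ± 0.50, adjusted p = 0.467). Its KO replicate 1 nearly reached WT replicate 3. Pparg itself overlapped between groups, at 152 and 41.7 CPM in KO and 185, 93.9 and 77.0 CPM in WT (-0.29 ± 0.50, adjusted p = 0.91), and turned positive without KO replicate 2 or WT replicate 1 (0.36 and 0.18). Cebpa, its partner in adipocyte differentiation, measured 193 and 91.3 CPM in KO and 625, 320 and 275 CPM in WT (-1.51 ± 0.41, adjusted p = 0.205).

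Of 19 adipokines, secreted proteins of fat, 1 was called (Cfd), 10 had both KO libraries below all WT libraries, and the median was -1.40. The other sign was seen in 6, up to 1.16, of which 1 had an unadjusted p under 0.05. Lep, the satiety hormone leptin, measured 283 and 35.9 CPM in KO and 3645, 952 and 402 CPM in WT (-3.38 ± 1.05, edgeR adjusted p = 0.283). Rbp4, retinol binding protein 4, measured 7.14 and 1.84 CPM in KO and 172, 60.5 and 47.1 CPM in WT (-4.38 ± 0.74, adjusted p = 0.0737). Sfrp5, a secreted WNT inhibitor, measured 11.4 and 7.99 CPM in KO and 321, 85.6 and 41.9 CPM in WT (-3.95 ± 0.78, adjusted p = 0.105). Leptin differed most among the WT libraries, with replicate 1 far above the others.

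Of 29 PPARG targets, edgeR called 0 and DESeq2 called 6 lower and 3 higher, while 12 had an unadjusted p under 0.05 on the lower side and 3 on the higher side (4.57% of all genes). Over all 26960 genes DESeq2 called 516 lower and 220 higher, the counts to set beside its calls here and in the lists that follow. The median was -0.99. Pck1, the glyceroneogenic enzyme PEPCK, measured 450 and 136 CPM in KO and 1908, 1360 and 1240 CPM in WT (-2.36 ± 0.49, edgeR adjusted p = 0.124). Dgat2, which makes triglyceride from diglyceride, measured 241 and 104 CPM in KO and 2108, 896 and 537 CPM in WT (-2.77 ± 0.58, adjusted p = 0.126). Both were low in both KO libraries. Cidea, a lipid droplet protein of brown fat, went the other way, at 83.8 and 17.5 CPM in KO against 2.43, 6.48 and 1.36 CPM in WT (3.88 ± 0.88, adjusted p = 0.167).

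Genes of triglyceride synthesis and of lipolysis had mostly lower values in KO, and edgeR called none of them. Of 21 triglyceride synthesis genes edgeR called 0 and DESeq2 called 4 lower and 1 higher (7 had an unadjusted edgeR p under 0.05), and 5 had both KO libraries below all WT libraries and 1 above, with a median of -0.40. Mogat1, a monoacylglycerol acyltransferase, had a log2 fold change of -2.41 ± 0.41 (edgeR adjusted p = 0.0661) and Gpat3, which starts glycerolipid synthesis, of -1.75 ± 0.42 (adjusted p = 0.172). Of 18 lipolysis genes edgeR called 0 and DESeq2 5, all lower (10 at an unadjusted edgeR p under 0.05), and 8 had both KO libraries below all WT libraries and none above, with a median of -1.03. Among them, Adrb3, the adipocyte beta-adrenergic receptor, measured 74.5 and 32.9 CPM in KO and a narrow 131, 113 and 131 CPM in WT (-1.22 ± 0.36, adjusted p = 0.251). Pde3b, which degrades cyclic AMP downstream of insulin, had -1.40 ± 0.34 (adjusted p = 0.175), Adora1, the antilipolytic adenosine receptor, -2.02 ± 0.53 (adjusted p = 0.197) and Cidec, a droplet fusion protein, -2.43 ± 0.64 (adjusted p = 0.197).

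Fatty acid synthesis genes divided. Of 23, edgeR called 0 and DESeq2 called 6 higher and 3 lower. In CPM, 7 had both KO libraries above all WT libraries and 5 had both below, the same numbers that had an unadjusted edgeR p under 0.05 in each direction. The median of -0.13 lay near 0 and turned to 0.11 with WT grouped by titles. Acly, which makes cytosolic acetyl-CoA from citrate, measured 855 and 369 CPM in KO and 208, 125 and 102 CPM in WT (2.08 ± 0.37, edgeR adjusted p = 0.0807). Acaca, acetyl-CoA carboxylase 1, measured 2004 and 620 CPM in KO and 438, 284 and 256 CPM in WT (2.01 ± 0.46, adjusted p = 0.163). Fasn, the fatty acid synthase that joins the malonyl-CoA made by the carboxylase, measured 8435 and 3324 CPM in KO and 2771, 1301 and 666 CPM in WT (1.90 ± 0.60, adjusted p = 0.29). For these 3 consecutive enzymes both KO libraries lay above all WT libraries. Thrsp, the lipogenic protein Spot 14, had a log2 fold change of 1.63 ± 0.42 (adjusted p = 0.191).

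Scd1, the desaturase that acts on the products of these enzymes, stood at the other end. It measured 2118 and 720 CPM in KO and 26085, 10127 and 9570 CPM in WT, with KO far below WT (-3.43 ± 0.73, edgeR adjusted p = 0.134). Srebf1, the gene of the lipogenic factor SREBP1, overlapped between groups, at 317 and 185 CPM in KO and 421, 253 and 227 CPM in WT (-0.26 ± 0.32, adjusted p = 0.853). With rosiglitazone the log2 fold change of KO against WT was -2.50 for Fasn (adjusted p = 0.0189), -2.23 for Acaca (adjusted p = 0.0103) and -0.53 for Acly (adjusted p = 0.303), and for Scd1 it was -3.77 (adjusted p = 0.00543). The difference between both contrasts was -4.39 ± 0.83 (adjusted p = 0.0981) for Fasn, -4.24 ± 0.64 (adjusted p = 0.051) for Acaca and -2.60 ± 0.50 (adjusted p = 0.0981) for Acly in edgeR, and none passed its test.

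**Figure D4:**
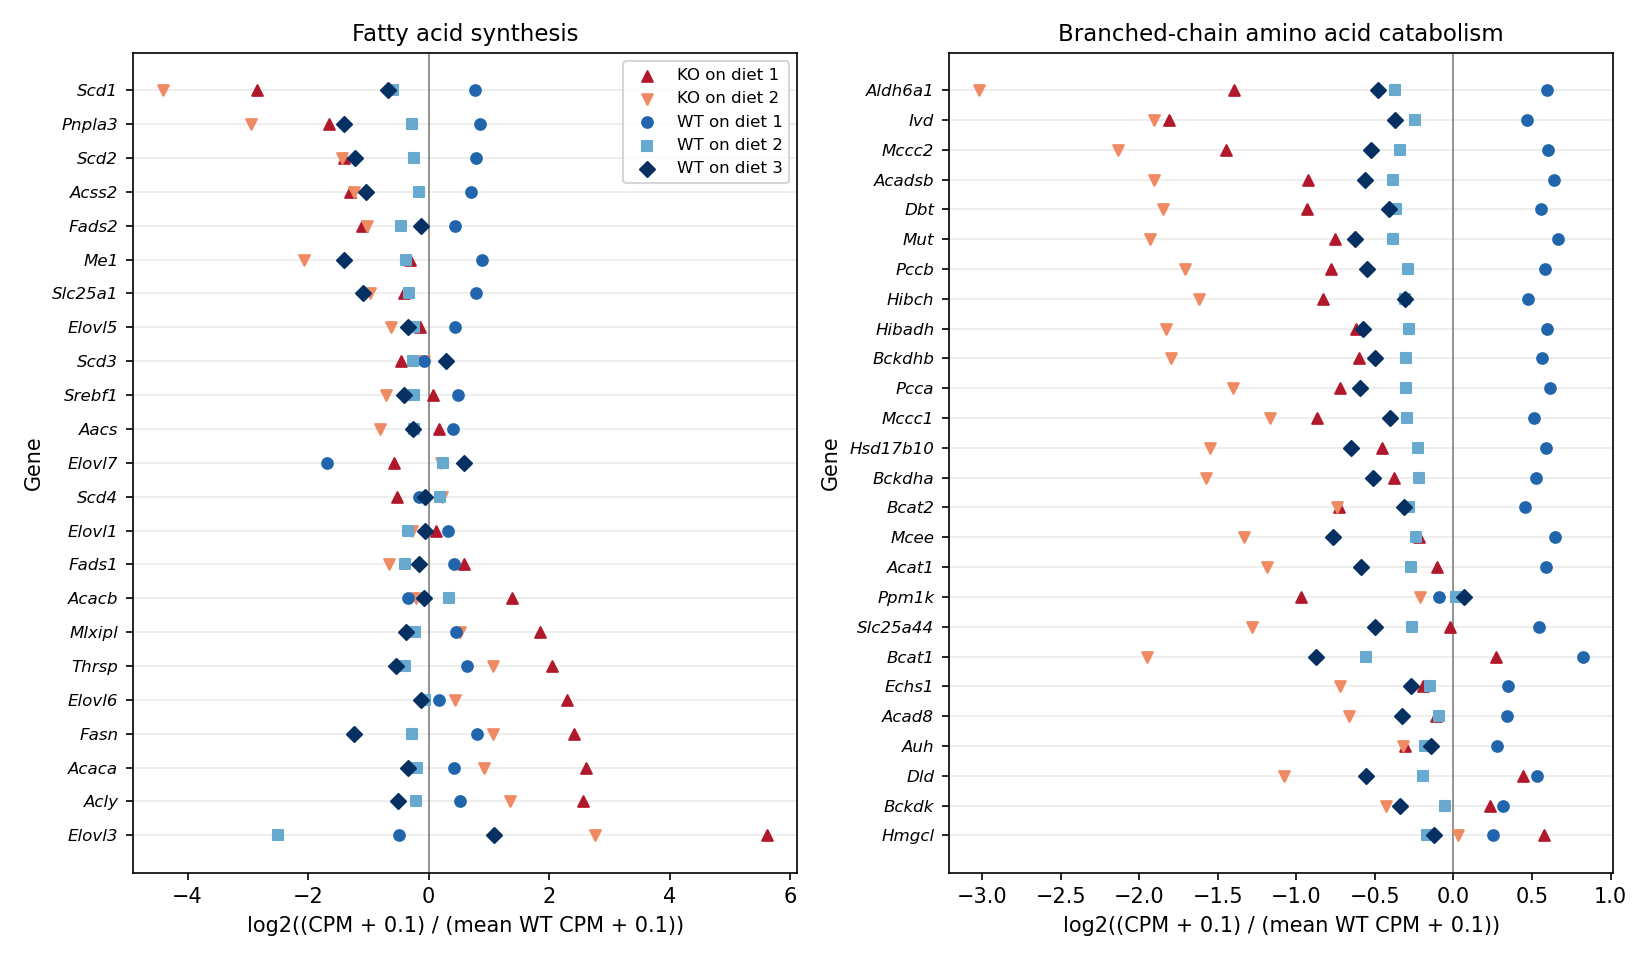
Each library's CPM plus 0.1 against the mean of the 3 WT libraries on diet (log2) for the genes of fatty acid synthesis and of branched-chain amino acid catabolism, 1 point per library. Acly, Acaca and Fasn lie to the right in both KO libraries and Scd1 to the left, whereas the branched-chain genes lie mostly to the left in KO.

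Branched-chain amino acid catabolism, which in adipocytes burns leucine, isoleucine and valine, was low as a list. Of 26 genes 1 was called (Ivd), 15 had both KO libraries below all WT libraries, none had both above, and the median was -0.89. Ivd measured 37.7 and 35.3 CPM in KO and 183, 112 and 103 CPM in WT, 36.5 ± 1.67 (SD, n = 2) against 133 ± 44.0 CPM (SD, n = 3; -1.86 ± 0.26, edgeR adjusted p = 0.0381). Mccc2, a subunit of the next leucine enzyme, methylcrotonyl-CoA carboxylase, measured 18.7 and 11.5 CPM in KO and 77.6, 40.4 and 35.5 CPM in WT (-1.76 ± 0.35, adjusted p = 0.105). Aldh6a1, of valine breakdown, had a log2 fold change of -1.99 ± 0.51 (adjusted p = 0.187). Dbt, the E2 subunit of the branched-chain ketoacid dehydrogenase, had -1.32 ± 0.34 (adjusted p = 0.194).

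Other mitochondrial lists did not share this on diet alone. Of 59 oxidative phosphorylation genes edgeR and DESeq2 called 0, 1 had an unadjusted edgeR p under 0.05, and the median was 0.10. With rosiglitazone 37 of them were called lower in KO, where 9.5% of all tested genes were, with a median of -1.12. The 25 genes of pyruvate dehydrogenase and the TCA cycle had a median of 0.05 on diet alone and the 24 fatty acid oxidation genes one of -0.25, again with 0 calls by edgeR and DESeq2 (4 and 3 at an unadjusted edgeR p under 0.05). With WT grouped by titles the medians were -1.42, -1.57 and -2.11 in the same order, so these lists depend on which WT libraries had the drug.

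Brown and beige adipocyte genes had a positive median of 0.87 over 28 genes, which was -0.19 with WT grouped by titles. By edgeR 0 were called and by DESeq2 4 higher and 2 lower, and 7 had both KO libraries above all WT libraries while 4 had both below. Acot11, a thermogenesis-associated acyl-CoA thioesterase, measured 64.3 and 18.3 CPM in KO and 5.12, 7.12 and 5.84 CPM in WT (2.77 ± 0.44, edgeR adjusted p = 0.0538). Elovl3, a fatty acid elongase of brown fat, measured 27.8 and 3.75 CPM in KO and 0.304, 0 and 1.1 CPM in WT (5.09 ± 1.39, adjusted p = 0.227). Ucp1, the uncoupling protein, overlapped, at 125 and 14.7 CPM in KO and 0, 18.1 and 0 CPM in WT (3.54 ± 1.87, adjusted p = 0.573). Prdm16, a transcriptional regulator of beige fat, went the other way, at 12 and 6.43 CPM in KO and 36.4, 21.3 and 22.0 CPM in WT (-1.53 ± 0.31, adjusted p = 0.108). The higher members were carried mostly by KO replicate 1, the library with the highest macrophage and progenitor marker sums. Its adipocyte marker sum was also above that of KO replicate 2, at 13315 against 4182 CPM.

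Genes of mTORC1 itself held no edgeR call on diet alone. Of 37 complex members and regulators edgeR called 0, DESeq2 called 2 lower, 5 had an unadjusted edgeR p under 0.05, and the median was -0.20. With WT grouped by titles 8 were called lower (6.67% of all genes were) and the median was -0.64. Sesn2, the leucine sensor sestrin 2, measured 8.62 and 6.99 CPM in KO and 64.9, 35.0 and 22.4 CPM in WT (-2.39 ± 0.43, edgeR adjusted p = 0.0807). Castor1, the arginine sensor, measured 7.34 and 5.19 CPM in KO and 45.3, 17.8 and 14 CPM in WT (-2.04 ± 0.46, adjusted p = 0.155). KO lay below WT for both. Mtor, the kinase, overlapped between groups, at 175 and 83.1 CPM in KO and 165, 109 and 94.0 CPM in WT (0.07 ± 0.34, adjusted p = 0.973), and had -0.71 with WT grouped by titles. Prr5l, a partner of mTOR complex 2, had a log2 fold change of -0.75 ± 0.22 (adjusted p = 0.238) and Flcn, folliculin, of 0.51 ± 0.21 (adjusted p = 0.414), which was -0.0338 with WT grouped by titles.

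Sesn2 is also a target of ATF4, the factor of the amino acid response that mTORC1 stimulates. Of 28 ATF4 targets and one-carbon synthesis genes edgeR called 0, DESeq2 called 5 lower, 8 had an unadjusted edgeR p under 0.05, 8 had both KO libraries below all WT libraries, and the median was -0.39. Cbs, cystathionine beta-synthase, measured 0.197 and 0.240 CPM in KO and 8.16, 2.06 and 2.82 CPM in WT (-4.27 ± 0.67, edgeR adjusted p = 0.0538). Cth, the next enzyme of transsulfuration, measured 0.591 and 0.160 CPM in KO and 5.90, 2.21 and 1.67 CPM in WT (-3.14 ± 0.76, adjusted p = 0.174). Phgdh, which starts serine synthesis, had even KO values of 43.8 and 41.1 CPM against 372, 129 and 99.2 CPM in WT (-2.24 ± 0.50, adjusted p = 0.151).

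Cholesterol synthesis and insulin signalling genes had mostly lower values in KO, but both sums overlapped between groups. The cholesterol sum was 586 and 385 CPM in KO and 1584, 775 and 561 CPM in WT. The insulin signalling sum was 2815 and 1839 CPM in KO and 4948, 3092 and 2755 CPM in WT. Of 24 cholesterol genes edgeR called 0 and DESeq2 3, all lower, 10 had an unadjusted edgeR p under 0.05, all lower, and the median was -0.53. Fdft1, squalene synthase, had a log2 fold change of -1.28 ± 0.31 (edgeR adjusted p = 0.175), Hsd17b7 of -1.42 ± 0.38 (adjusted p = 0.201), Cyp51, lanosterol demethylase, of -0.76 ± 0.24 (adjusted p = 0.295) and Insig1, the sterol-sensing retention protein, of -2.04 ± 0.59 (adjusted p = 0.238). Of 23 insulin signalling genes edgeR called 0 and DESeq2 4, all lower, 8 had an unadjusted edgeR p under 0.05, all lower, and the median was -0.40. Grb14, an inhibitor of the insulin receptor, measured 5.61 and 1.72 CPM in KO and 44.6, 16.8 and 17.7 CPM in WT (-2.85 ± 0.57, adjusted p = 0.105). Irs3, an insulin receptor substrate of rodent fat, had -1.97 ± 0.56 (adjusted p = 0.234) and Pik3cb, a catalytic subunit of PI3 kinase, -1.09 ± 0.33 (adjusted p = 0.275). Slc2a4, the insulin-responsive glucose transporter GLUT4, overlapped between groups, at 131 and 38.7 CPM in KO and 163, 87.1 and 55.2 CPM in WT (-0.26 ± 0.64, adjusted p = 0.943).

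Macrophage transcripts had higher values in KO, and most of that lay in 1 library. Of 22 macrophage markers edgeR called 0 and DESeq2 3, all higher. At an unadjusted edgeR p under 0.05 there were 16, all higher, but only 6 had both KO libraries above all WT libraries, and the median was 1.08. Folr2, a folate receptor of resident macrophages, measured 57.7 and 20.6 CPM in KO and 10.3, 6.48 and 16.1 CPM in WT (1.84 ± 0.42, edgeR adjusted p = 0.159). Lyve1, a hyaluronan receptor of resident macrophages and lymphatic vessels, measured 56.6 and 20.2 CPM in KO and 10.1, 13.5 and 12.6 CPM in WT (1.67 ± 0.42, adjusted p = 0.18). Cd163, a haemoglobin scavenger receptor, had 1.33 ± 0.37 (adjusted p = 0.217) and C1qb, of complement C1q, 1.41 ± 0.43 (adjusted p = 0.275). Trem2, a lipid receptor of fat-associated macrophages, measured 42.6 and 19.0 CPM in KO and 18.0, 9.18 and 17.3 CPM in WT (1.05 ± 0.37, adjusted p = 0.334). Itgax, the CD11c gene, overlapped, at 34.4 and 21.3 CPM in KO and 34.0, 18.9 and 20.4 CPM in WT (0.19 ± 0.30, adjusted p = 0.9), and turned to -0.20 without KO replicate 1.

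Progenitor, complement and interferon lists had positive medians. The 17 adipocyte progenitor markers summed to 3723 and 1507 CPM in KO and 1476, 819 and 1213 CPM in WT, with a median log2 fold change of 0.98. There were 0 calls by edgeR and 4 by DESeq2 (3 higher, 1 lower), with 9 at an unadjusted edgeR p under 0.05. Ly6a, the stem cell antigen Sca-1, measured 444 and 126 CPM in KO and 98.6, 57.5 and 92.3 CPM in WT (1.78 ± 0.44, edgeR adjusted p = 0.178). Dpp4, a peptidase of early progenitors, measured 134 and 95.1 CPM in KO and 31.0, 44.4 and 58.7 CPM in WT (1.36 ± 0.36, adjusted p = 0.198). Anxa3, an annexin, had 0.98 ± 0.25 (adjusted p = 0.185), and F3, tissue factor, had the opposite sign at -1.88 ± 0.48 (adjusted p = 0.187).

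Of 20 complement genes 1 was called, Cfd, which is lower, although the list median was 0.83. At an unadjusted edgeR p under 0.05, 10 were higher and 4 lower. Only 3 had both KO libraries above all WT libraries and 3 had both below. These shares are 15% each, against 10.5% and 10.3% of all tested genes. The complement sum overlapped between groups, at 4916 and 2448 CPM in KO and 5242, 2702 and 3702 CPM in WT. C7, of the membrane attack complex, measured 101 and 51.5 CPM in KO and 26.8, 13.1 and 21.4 CPM in WT (1.90 ± 0.51, edgeR adjusted p = 0.207), and Cfp, properdin, had 0.99 ± 0.29 (adjusted p = 0.258). Both lay above all WT libraries in both KO libraries, and factor D below them. Of 24 interferon-stimulated genes edgeR and DESeq2 called 0, 11 had an unadjusted edgeR p under 0.05, all higher, and the median was 0.79. Their sum was 1344 and 699 CPM in KO and 724, 675 and 812 CPM in WT, with only KO replicate 1 above WT. Oasl2 measured 78.7 and 22.0 CPM in KO and 19.8, 11.9 and 21.4 CPM in WT (1.51 ± 0.45, adjusted p = 0.257), and Isg15 16.0 and 4.63 CPM against 3.51, 4.08 and 4.07 CPM (1.41 ± 0.42, adjusted p = 0.254). In KO replicate 2 both were close to the highest WT library. Ifit1 (1.83 ± 0.65, adjusted p = 0.345) and Ifitm3 (1.28 ± 0.43, adjusted p = 0.322) overlapped between groups.

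**Figure D5:**
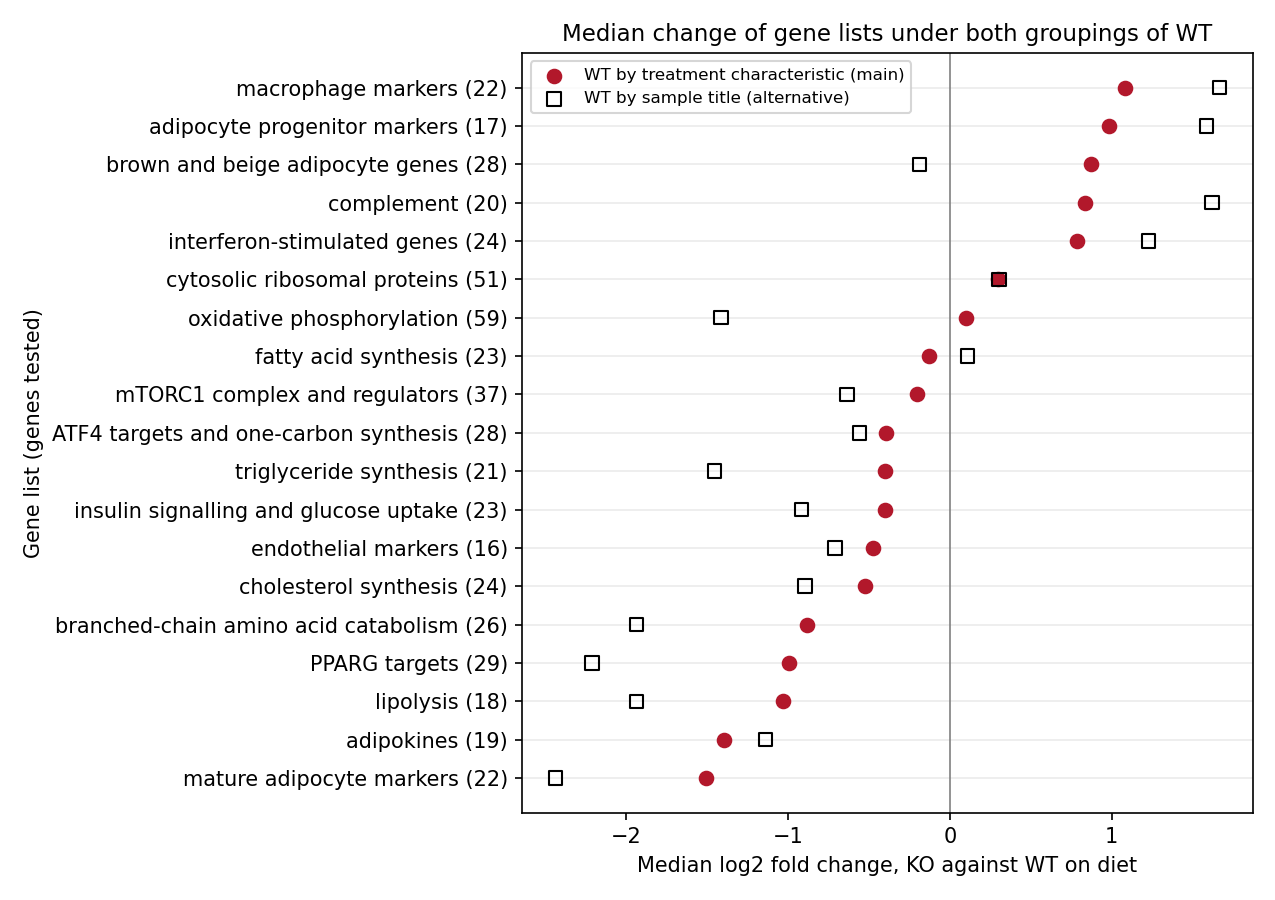
Median log2 fold change of KO against WT on diet for 19 gene lists, with the number of genes tested in parentheses, with WT grouped by treatment characteristic (filled circles) and by sample title (open squares). Adipocyte lists lie to the left and macrophage, progenitor, complement and interferon lists to the right under both groupings, while brown and beige genes, fatty acid synthesis and oxidative phosphorylation change sign.

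The adipocyte marker sum was lower in both KO libraries, and its part in the results was not tested. With the mean adipocyte marker level as a covariate, 3712 of 26960 genes were called, among them 32 of the 37 in the same direction. In that fit the medians of the adipokine, lipolysis, PPARG target and branched-chain lists turned positive (0.30, 0.41, 0.75 and 0.33), and Fasn, Acaca and Acly had log2 fold changes of 4.03, 3.42 and 3.44. With skeletal muscle markers as the covariate 15 genes were called, among them 12 of the 37, and with lymphocyte markers 1206, among them all 37. Without the 4 libraries whose muscle markers took over 0.5% of reads, an alternative added after seeing the data, there were 0 calls (1492 at an unadjusted edgeR p under 0.05), with all 37 in the same direction.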

How the data were processed

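Inguinal fat RNA was taken up in Trizol and sequenced as Nextera XT libraries, per the labels' protocols, with strand not stated. Per the submitters' processing notes, the authors used Salmon and edgeR with mm10 and GRCm38, with versions not given in the sources used here. Estimated counts and TPM per transcript are deposited for each library, per the file headers.

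Of 132288 transcripts, 131892 (99.7%) matched GENCODE M21, giving 52282 genes. Counts were added up within genes and rounded. edgeR 4.0.16 (R 4.3.3; quasi-likelihood, robust, TMM, expression filter by group) was fitted to all 11 libraries with 1 mean per group, and the contrast was KO minus WT on diet, adjusted over 26960 genes by Benjamini and Hochberg at 0.05. Errors beside log2 fold changes are approximate SEs, the absolute log2 fold change divided by the square root of this fit's quasi-likelihood F statistic. Floors and intervals cover counting error only. No libraries were identical: between replicates on diet the chi-square per degree of freedom was 28.8 to 148. On simulated counts for this comparison (26960 genes), 37.3% of 4-fold and 81.8% of 8-fold changes were recovered, 4.48% of 2-fold ones, and 5 unchanged genes were called. Changes were placed in 66 or 67 genes per fold, all above a minimum of expected reads, so these rates do not cover genes with few reads. Each gene was drawn independently around a mean common to all libraries. Differences in tissue content, which move many genes together, were thus not simulated, and the rates hold for that simpler setting.

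Members, the 43 lists and tests were chosen with earlier results of these data known. Named were 16 fixed genes, up to 14 highest and 14 lowest called genes (average log2 CPM at least 1, not predicted or non-coding, groups not overlapping) and, in each described list, at most the 4 members of lowest p. Some genes that this rule names are not reported here. Alternatives were RLE and upper-quartile scaling, DESeq2 1.42.0, limma 3.58.1 (voom with weights, and log2(TPM + 1)), other filters, only 5 libraries, protein-coding genes, the replicate block, titles, marker covariates and each library left out. Promoters are from RefSeq (GRCm38.p6).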

Additional observations from a re-analysis of the deposited data

Results flagged for a closer look

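The genotype difference with rosiglitazone was tested against that on diet alone in the same edgeR fit, and 28 genes passed at an adjusted p under 0.05. Among them were 3 genes called on diet alone and 1 fixed gene. For Hist1h2ap the difference was 11.41 on the log2 scale (adjusted p = 0.000659), from a gene with 0 reads in KO on diet and with near-identical copies. For B430119L08Rik, a non-coding gene antisense to Serpina1c, the difference was 4.03 (adjusted p = 0.0191), with KO lower on diet (-2.64) and higher with rosiglitazone (1.38). For Gm22419, a short RNA gene, it was -18.32 (adjusted p = 0.0191), from 0 CPM in WT on diet and 0 CPM in KO with rosiglitazone. For Itgax, the CD11c gene of macrophages and dendritic cells, the difference was 2.98 (adjusted p = 0.0448), from 0.19 on diet alone and 3.16 with rosiglitazone. With WT grouped by titles, B430119L08Rik had 2.08 and Gm22419 -0.21 in the diet contrast.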

How the results depend on the processing

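The number of called genes depended strongly on the processing. Against 37 calls on diet alone and 28 for the difference between both genotype contrasts, upper-quartile scaling gave 77 and 44, DESeq2 736 and 531, limma-voom with quality weights 3 and 47, no filter on low counts 75 and 47, limma-trend on log2(TPM + 1) 83 and 5, protein-coding genes only 74 and 52, and WT grouped by titles 2886 and 154. Marker covariates gave 1206 and 252 (lymphocytes), 15 and 1 (skeletal muscle) and 3712 and 519 (mature adipocytes). The 5 libraries alone gave 0 calls, and leaving out those with much muscle RNA (over 0.5% of reads) gave 0 and 0. RLE scaling and a filter of 1 CPM in 2 libraries stayed within 1.5 times for the first count. Rptor stayed negative in each fit and passed only with WT grouped by titles, at -0.91.

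With the replicate number as a block there was 1 call in each of the 2 counts, and Mtor turned to -0.0398. Deviations of KO and WT libraries with the same number correlated at 0.61 and 0.40, but KO replicate 2 correlated at 0.40 with WT replicate 3 too. With 2 KO libraries the deviations of one mirror those of the other, so these values are not independent. There were only 2 such pairs and the labels do not pair them, so the number was treated as a name.

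Without 1 library the calls ranged from 2 to 250 on diet alone and from 1 to 348 for the difference. On diet alone they numbered 12, 18 and 18 without KO with rosiglitazone replicates 1 to 3, 2, 9 and 5 without WT with rosiglitazone replicates 1 to 3, 23 and 250 without KO replicates 1 and 2, and 75, 33 and 81 without WT replicates 1 to 3. Without 1 of the KO libraries on diet, the lone one is assumed to vary like the other groups.

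Directions turned for few named genes. With WT grouped by titles B430119L08Rik was 2.08, Gm22419 -0.21, Mtor -0.71 and Flcn -0.0338. With the adipocyte covariate Lep was 0.25, Plin1 0.26, Fabp4 0.53, Srebf1 0.84, Pparg 1.54, Slc2a4 1.79, Insig1 0.19, Irs3 0.0784 and Pik3cb 0.0892. Lep, Plin1, Fabp4, Pparg and Slc2a4 are themselves part of that covariate, so part of their shift was set in advance. Mtor was -0.0749 with the lymphocyte covariate and Slc2a4 0.0644 with the muscle covariate. Leaving out 1 library, Mtor ranged from -0.57 to 0.51, Pparg from -1.51 to 0.36, Srebf1 from -0.71 to 0.0775, Slc2a4 from -1.40 to 0.36 and Itgax from -0.20 to 0.50. The cause of these changes was not tested. At these depths genes under about 1 CPM rest on few reads, and 2 KO libraries limit every error.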
